A study of Mus musculus with 18 samples.

Results

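The genes described here are 10 transcription factors and markers of naive pluripotency: Nanog, Esrrb, Tfcp2l1, Nr0b1, Tbx3, Prdm14, Zfp42, Nr5a2, Spic and Tcl1. They were taken by symbol from the table of gene counts, where all 10 were present among 25239 symbols, and all 10 were among the 17545 genes that passed the filter on low counts. After removal of ribosomal RNA, the RNA of mouse stem cells was sequenced in 18 libraries, 6 groups of 3, which follow primed cells on their way to naive pluripotency. The start, at day 0, was EpiSC, which the labels call primed stem cells. Cells labelled transient followed on days 3 (D3), 5 (D5) and 8 (D8). The way ended with rES, given as naive, and embryonic stem cells (ESC) from mouse were set beside them for comparison. The labels name mouse embryo as the tissue of every group and give no strain, allele, medium or added factor, and no day for rES. Nor do they state that the replicates came from independent cultures, so a p-value here reflects the spread of these libraries alone, which may be technical.

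Mouse pluripotent cells exist in a naive state, like the inner cell mass of the blastocyst, and in a primed state, like the epiblast after implantation. The naive state is held by a network of transcription factors that activate one another and lie downstream of LIF-STAT3 signalling, of WNT signalling, which relieves repression by TCF7L1, and of low FGF-ERK signalling. NANOG is a homeodomain factor of that network. ESRRB and NR5A2 are nuclear receptors that bind a closely related DNA site, and NR0B1 is a nuclear receptor family protein without the usual DNA-binding domain. TFCP2L1 is a Grainyhead-family factor, TBX3 a T-box factor, PRDM14 a PR-domain protein that restrains FGF signalling and DNA methylation, and SPIC an ETS-family factor. Zfp42, also called Rex1, encodes a zinc finger protein and is the classic marker of the naive state, and Tcl1 encodes a coactivator of the kinase AKT. The genes lie on chromosomes 6 (Nanog), 12 (Esrrb and Tcl1), 1 (Tfcp2l1, Prdm14 and Nr5a2), X (Nr0b1), 5 (Tbx3), 8 (Zfp42) and 10 (Spic). Several of them also serve other cell types: ESRRB in trophoblast stem cells, NR5A2 in visceral endoderm and liver, PRDM14 in primordial germ cells and SPIC in macrophages.

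Deposited counts summed to between 58362230 and 101607352 per library, D8 replicate 2 being the deepest. Levels are CPM, counts scaled to a common library size after TMM normalisation, given as the mean ± SD of 3 libraries. The floor of detection was set at 12 deposited counts, 0.122 to 0.202 CPM depending on the library. Log2 differences carry an approximate standard error, and adjusted p comes from edgeR's quasi-likelihood test with Benjamini-Hochberg adjustment over all genes tested, a gene being called at an adjusted p under 0.05. All 6 primed markers were called lower in ESC than in EpiSC, where 6330 of 17545 genes were called lower. Their list was chosen with earlier results of these data known, so this is no test of the labels.

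**Figure D1:**
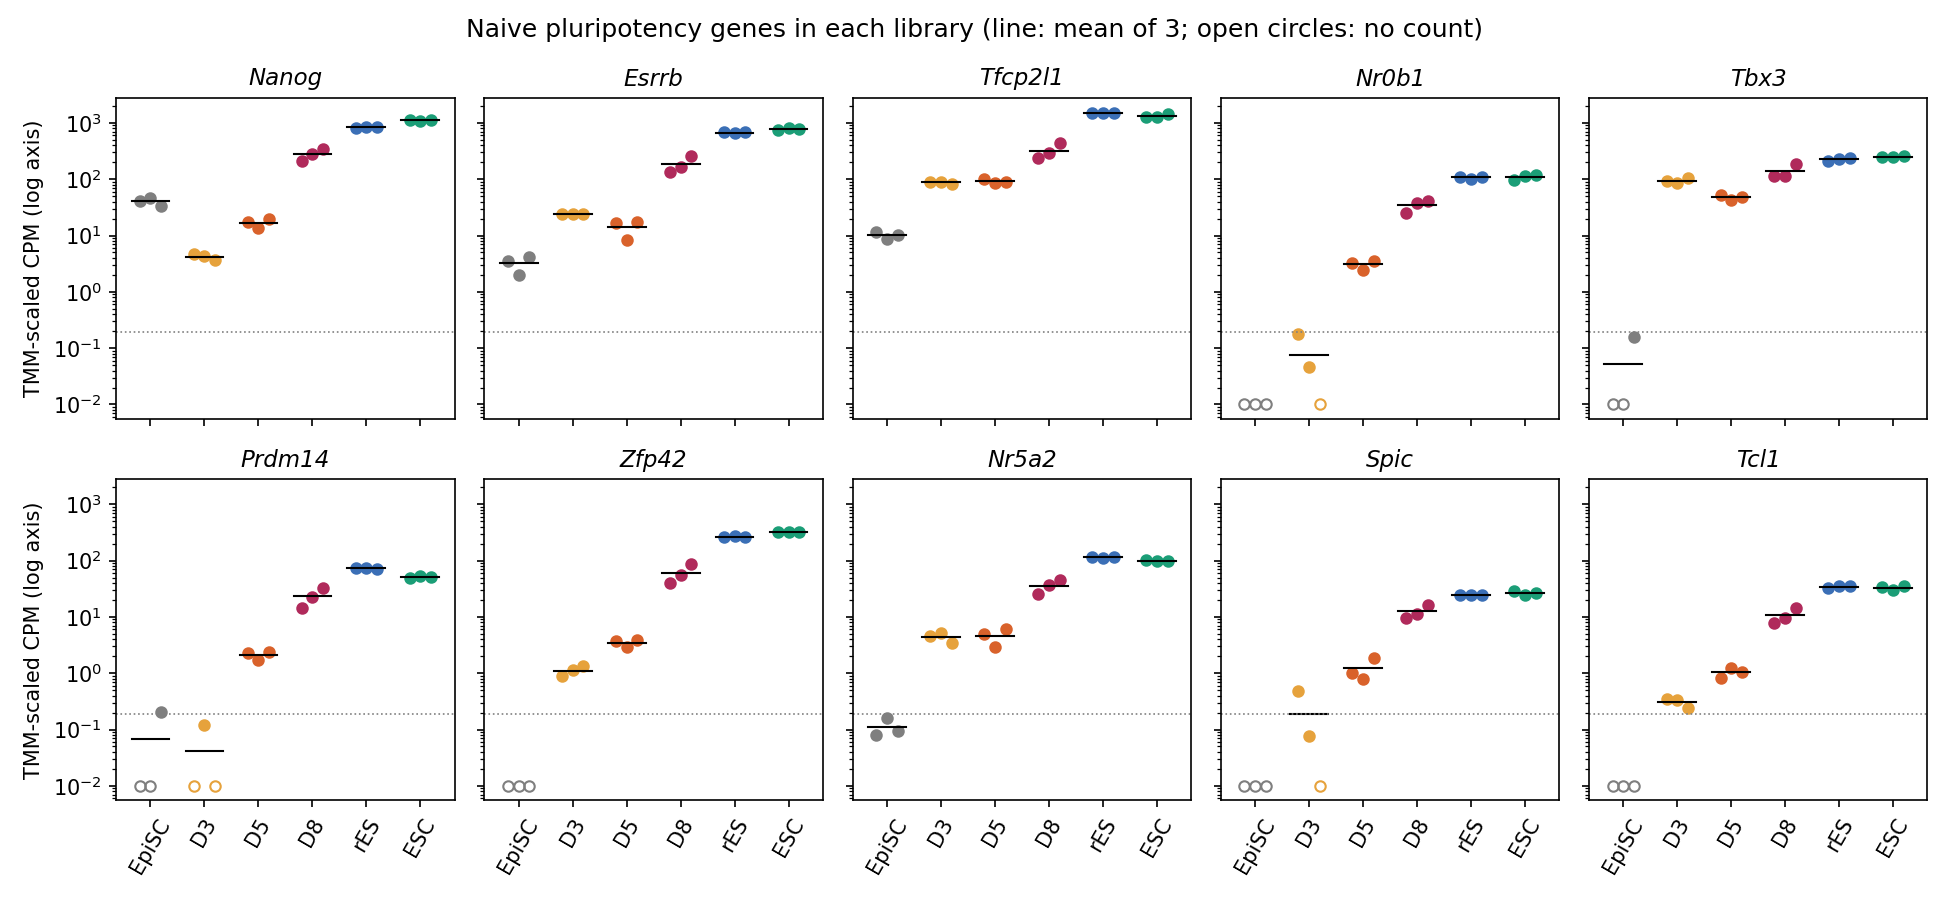
TMM-scaled CPM on a log axis (y) in each library of the 6 groups (x) for the 10 genes. Points are libraries, black lines are means of 3, open circles at the bottom are libraries with no count, and the dotted line is a floor of about 12 deposited counts. Every gene had its 2 highest means in rES and ESC, and Nanog alone was called lower at D3 and D5 than in EpiSC.

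The distance to be covered was asked first, ESC against EpiSC. All 10 genes were called higher in ESC, against 31.2% of all genes tested, and none overlapped between the groups, where 29.8% of all genes were called higher without overlap. The median fitted log2 difference was 10.98 for the 10 genes, or 8.55 with the 4 genes that had no count in EpiSC set at their lower bound, and -0.07 for all genes. In ESC, Tfcp2l1 stood at 1288, 1255 and 1422 CPM, compared with 11.3, 8.65 and 10.4 CPM in EpiSC (a log2 difference of 7.03 ± 0.20, adjusted p = 3.15e-15). Tbx3 stood at 251, 251 and 254 CPM in ESC while EpiSC had 0, 0 and 0.156 CPM (log2 difference 12.17 ± 0.38, adjusted p = 9.41e-15). Prdm14 had 49.1, 53.2 and 51.8 CPM in ESC while EpiSC had 0, 0 and 0.202 CPM (log2 difference 9.51 ± 0.53, adjusted p = 2.11e-11). Nr5a2 had 103, 98.5 and 99.7 CPM in ESC while EpiSC had 0.0803, 0.158 and 0.0934 CPM, all under the floor (log2 difference 9.80 ± 0.34, adjusted p = 3.68e-14). The EpiSC counts of Tbx3 and Prdm14 were all in replicate 3. Without that library neither gene had a count in EpiSC, so their fitted log2 differences, then 17 and 14.71, are not measured sizes. Nr0b1, Zfp42, Spic and Tcl1 had no count in any EpiSC library. Nanog, at 40.9 ± 6.70 CPM, kept 3.67 ± 0.602% of its ESC level in EpiSC, the highest share of the 10. To compare levels between genes, CPM was divided by the length of the merged exons. In ESC, Nanog then came first at 497 CPM per kilobase, followed by Zfp42 at 169, Tfcp2l1 at 140, Esrrb at 129, Nr0b1 at 61.2, Tbx3 at 38.0 and Prdm14 at 20.0 CPM per kilobase. Tcl1 at 17.9, Nr5a2 at 17 and Spic at 7.01 CPM per kilobase were the lowest.

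The state at day 3 was asked with D3 against EpiSC. Tbx3, Tfcp2l1, Esrrb and Nr5a2 were up, Zfp42 and Tcl1 were up at low levels, and Nanog was down. In all, 8 of the 10 genes were called higher against 34.1% of all genes, 6 of them with no overlap of libraries against 32% of all genes, and 1 was called lower against 30.2%. Tbx3 reached 91.3, 87.4 and 105 CPM at D3, which no EpiSC library approached (log2 difference 10.76 ± 0.38, adjusted p = 7.58e-14). Tfcp2l1 reached 90.9, 91.1 and 80.8 CPM at D3 (log2 difference 3.11 ± 0.17, adjusted p = 2.00e-11). Esrrb stood at 23.9, 23.9 and 24.0 CPM at D3 while EpiSC had 3.56, 2.0 and 4.20 CPM (log2 difference 2.88 ± 0.28, adjusted p = 6.00e-08). The D3 libraries of Esrrb were within 1 CPM of each other and all above those of EpiSC. Nr5a2 stood at 4.5, 5.22 and 3.45 CPM at D3 (log2 difference 5.28 ± 0.36, adjusted p = 5.45e-10). Zfp42 had 0.881, 1.15 and 1.33 CPM and Tcl1 0.343, 0.337 and 0.242 CPM at D3 against no count in EpiSC, at least 5.89-fold and 1.62-fold higher than the EpiSC floor (adjusted p = 3.60e-07 and 2.20e-06).

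Nanog went the other way, with 4.76, 4.28 and 3.63 CPM at D3 and 41.7, 47.1 and 33.8 CPM in EpiSC, a fall without overlap (log2 difference -3.27 ± 0.18, adjusted p = 1.82e-11). The remaining 3 genes were at or near the floor. Nr0b1 had 11, 3 and 0 deposited counts and Spic 30, 5 and 0 in D3 replicates 1 to 3, with none in EpiSC. Both were called higher (adjusted p = 0.0230 and 0.00912) although a library of each group had no count, and without D3 replicate 1 neither call held (adjusted p = 0.155 and 0.0829). Prdm14 had counts, 8 in all, in a single D3 library and was not called (adjusted p = 0.650).

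The shared pluripotency factors were low at the same time. POU5F1 (OCT4) and SOX2 pair on DNA at naive and primed genes alike. Pou5f1 averaged 27.6 ± 10.8 CPM at D3 and 331 ± 63.1 CPM in EpiSC, and Sox2 11.3 ± 0.958 CPM at D3 and 189 ± 27.5 CPM in EpiSC (adjusted p = 2.75e-07 and 1.71e-09). With Sall4 and Utf1 they made 4 of 4 shared factors lower at D3, against 30.2% of all genes. The promoters of Nanog and Zfp42 are shown because each holds a match to TTTGCAT, the octamer site of POU factors without its first base, and that of Esrrb because it holds a match to TTCNNNGAA, the letters bound by STAT3. The 250 bases before the RefSeq start are given, on the strand of the gene and in GRCm38.p6, with the matches in capitals. They lie at chr6:122707239-122707488 on the plus strand for Nanog, chr8:43307010-43307259 on the minus strand for Zfp42 and chr12:86360867-86361116 on the plus strand for Esrrb.
Nanog: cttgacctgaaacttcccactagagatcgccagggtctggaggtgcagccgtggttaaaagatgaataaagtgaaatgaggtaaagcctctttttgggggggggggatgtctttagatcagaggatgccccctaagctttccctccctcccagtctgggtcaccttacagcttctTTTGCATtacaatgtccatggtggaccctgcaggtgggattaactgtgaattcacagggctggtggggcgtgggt
Zfp42: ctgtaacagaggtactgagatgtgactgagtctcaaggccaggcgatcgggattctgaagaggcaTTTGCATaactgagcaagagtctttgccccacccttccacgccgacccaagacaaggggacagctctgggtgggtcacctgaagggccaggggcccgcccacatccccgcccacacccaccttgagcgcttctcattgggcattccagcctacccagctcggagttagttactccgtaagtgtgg
Esrrb: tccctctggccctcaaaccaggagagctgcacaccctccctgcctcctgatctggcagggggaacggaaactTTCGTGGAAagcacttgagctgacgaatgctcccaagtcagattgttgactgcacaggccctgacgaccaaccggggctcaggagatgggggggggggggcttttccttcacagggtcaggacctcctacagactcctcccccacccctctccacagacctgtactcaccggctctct
The match begins 75 bases before the start in Nanog, 185 bases before it in Zfp42 and 178 bases before it in Esrrb. Searched on both strands, TTTGCAT occurred in 4.12% and TTCNNNGAA in 7.02% of 32851 promoter windows of the same length. The table holds 11 windows of 8 of the genes, of which 1 held TTCNNNGAA and 3 held TTTGCAT, that of Zfp42 and both of Nanog, which overlap and hold the same site, so these are 2 sites. AAGGTCA, the core of the site of ESRRB and NR5A2, occurred in 4.08% of them and in none of the 11. Tbx3 and Prdm14 were not matched. The motifs do not overlap each other in these windows, and a match is a description of the letters only. TTTGCAT was chosen after the other motifs, and a link between its matches and the level of Pou5f1 was not tested.

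By day 5, 9 genes were called higher than in EpiSC, against 37.7% of all genes, all 9 without overlap, against 35.8%, and Nanog was still lower, against 34.3%. These comparisons share their EpiSC libraries with those of day 3. What moved between the days was tested directly, D5 against D3. In that comparison 6 of the 10 genes rose against 29.9% of all genes and 2 fell against 29.6%. Nr0b1 had 3.27, 2.43 and 3.49 CPM at D5 and 0.179, 0.0459 and 0 CPM at D3 (log2 difference 5.39 ± 0.42, adjusted p = 1.66e-08), and Prdm14 had 2.28, 1.72 and 2.43 CPM at D5 and 0, 0.122 and 0 CPM at D3 (log2 difference 5.65 ± 0.66, adjusted p = 7.95e-07). For both, every D5 library was above every D3 library. Nanog rose to 17.4, 13.8 and 19.4 CPM at D5 (log2 difference 2.0 ± 0.17, adjusted p = 1.66e-08), and Zfp42 to 3.67, 2.87 and 3.93 CPM (log2 difference 1.63 ± 0.26, adjusted p = 4.63e-05). Spic averaged 1.23 ± 0.571 CPM and Tcl1 1.05 ± 0.212 CPM at D5 (log2 differences from D3 of 2.75 ± 0.60 and 1.77 ± 0.27). Where D3 was at or near the floor, the size of the difference rested on 1 library. Without D3 replicate 1 the differences of Nr0b1 and Spic were 6.99 and 4.98, both still called. Without D3 replicate 2 Prdm14 had no count at D3. Its fitted difference, then 10.12 and still called, is not a measured size.

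Tbx3, Esrrb, Tfcp2l1 and Nr5a2 were not called higher at D5 than at D3. Tbx3 fell to 53.2, 43.1 and 48.7 CPM at D5, with no overlap with D3 (log2 difference -0.97 ± 0.20, adjusted p = 0.000351). Esrrb stood at 16.6, 8.30 and 17.4 CPM at D5 and was called lower than at D3 (log2 difference -0.76 ± 0.25, adjusted p = 0.0152). That call rested on D5 replicate 2, without which the log2 difference was -0.49 (adjusted p = 0.0840). Tfcp2l1 at 91.3 ± 7.71 CPM and Nr5a2 at 4.63 ± 1.55 CPM were not called against D3, at 87.6 ± 5.87 and 4.39 ± 0.888 CPM (adjusted p = 0.773 and 0.796). Pou5f1 and Sox2 were at 7.01 ± 4.64 and 8.43 ± 2.87 CPM at D5.

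Between days 5 and 8 all 10 genes rose, against 25.1% of all genes, and none fell, against 22%. The rise was without overlap for all 10, where 23.2% of all genes were called higher without overlap. The gains ran from a log2 difference of 1.51 ± 0.20 for Tbx3 and 1.82 ± 0.16 for Tfcp2l1 to 4.05 ± 0.17 for Nanog and 4.13 ± 0.23 for Zfp42. Nanog stood at 207, 283 and 346 CPM in D8 replicates 1 to 3, Esrrb at 133, 167 and 261 CPM and Zfp42 at 40.3, 56.0 and 87.3 CPM. The lowest D8 library of each was several times the highest D5 library. Prdm14 reached 14.7, 22.5 and 32.7 CPM, Nr0b1 25.5, 37.7 and 41.7 CPM and Nr5a2 25.8, 36.6 and 44.5 CPM at D8. Spic reached 9.75, 11.5 and 16.4 CPM and Tcl1 7.91, 9.68 and 14.5 CPM. All 10 genes were now called above EpiSC, against 42.4% of all genes, and without overlap, against 40.4%, Nanog included (log2 difference 2.77 ± 0.16, adjusted p = 2.78e-11). All 10 were also below ESC, against 32.4% of all genes called lower and 34.9% lower without overlap. Tbx3 at D8 was nearest to its ESC level (log2 difference -0.87 ± 0.19, adjusted p = 0.000609) and Zfp42 farthest from it (log2 difference -2.38 ± 0.20, adjusted p = 1.70e-08). The calls of Prdm14 (log2 difference -1.14 ± 0.30, adjusted p = 0.00234) and Spic (log2 difference -1.10 ± 0.39, adjusted p = 0.0189) were lost with DESeq2 (adjusted p = 0.267 and 0.198). That of Spic was also lost without D8 replicate 1, D8 replicate 2 or ESC replicate 1 (adjusted p = 0.0699, 0.0562 and 0.0527).

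**Figure D2:**
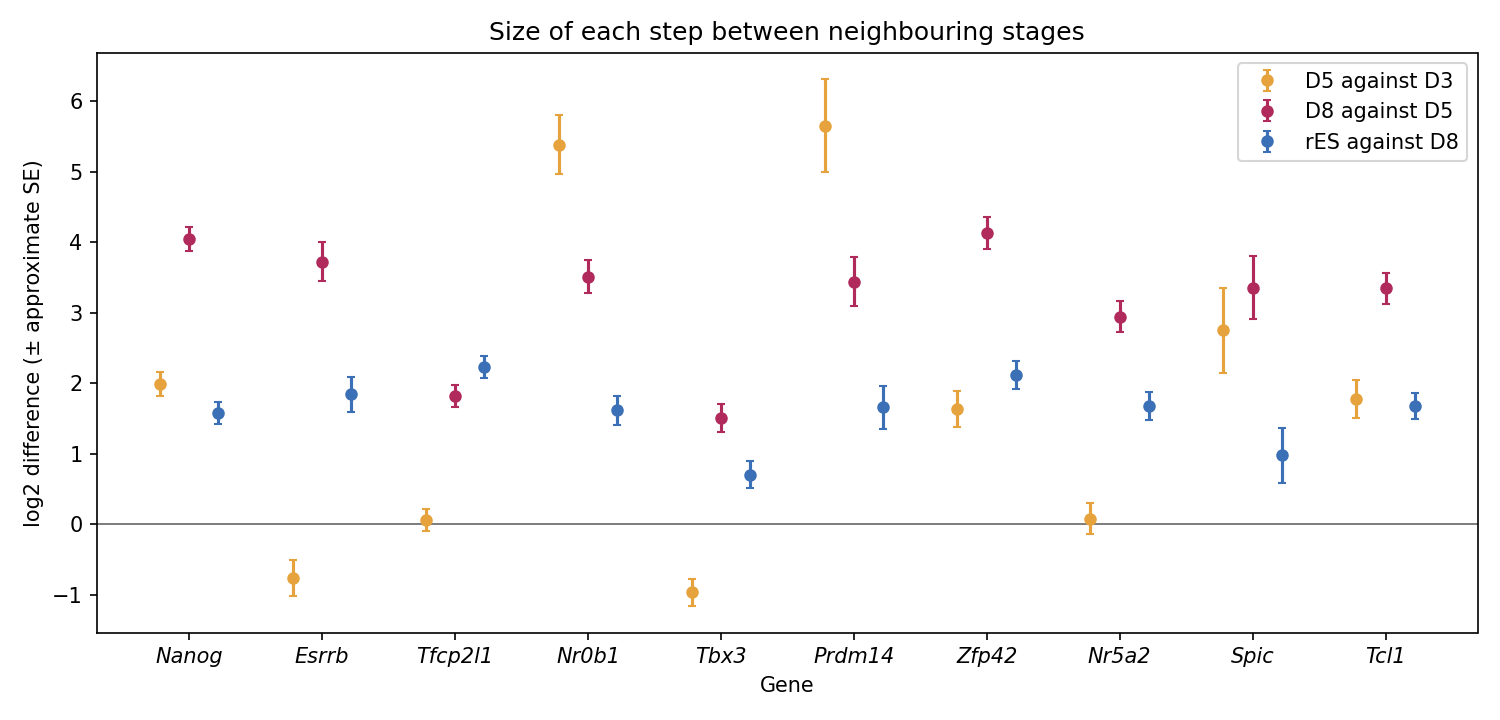
Log2 difference with its approximate standard error (y) for each gene (x) in the steps D5 against D3, D8 against D5 and rES against D8. Tbx3 and Esrrb lie below 0 in the first step, and all 10 genes lie above 0 in the other steps.

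The D8 libraries differed among themselves more than those of any later group. The SD was 24.1% to 39.1% of the mean over the 10 genes at D8, with a median of 31.4%, against 1.98% in rES and 3.8% in ESC. Over all genes of at least 5 CPM that median was 10.8% at D8. All 10 genes were lowest in replicate 1 and highest in replicate 3, where 38.7% of all genes tested were highest. The ratio of replicate 3 to replicate 1 ran from 1.63 for Nr0b1 to 2.23 for Prdm14, and 7.43% of 10743 genes of at least 5 CPM had a ratio above 1.5. The shared factors followed, the summed level of the 4 genes being 257, 277 and 553 CPM in replicates 1 to 3. The 8 trophoblast markers summed to 709.9, 628 and 583 CPM in the same libraries, of which Krt7 alone made up 468, 404 and 336 CPM. Of the 8, 3 were highest in replicate 1 (Krt7, Elf5 and Eomes), 2 in replicate 2 and 3 in replicate 3. The 6 primed markers stood at 67.0, 79.6 and 98.8 CPM and the 6 feeder fibroblast markers at 964, 1591 and 1135 CPM. Their part in the spread was not tested. In bulk RNA, fewer cells that express these genes and less RNA per cell cannot be told apart. The calls of D8 against EpiSC and D8 against D5 held for all 10 genes without any one D8 library.

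**Figure D3:**
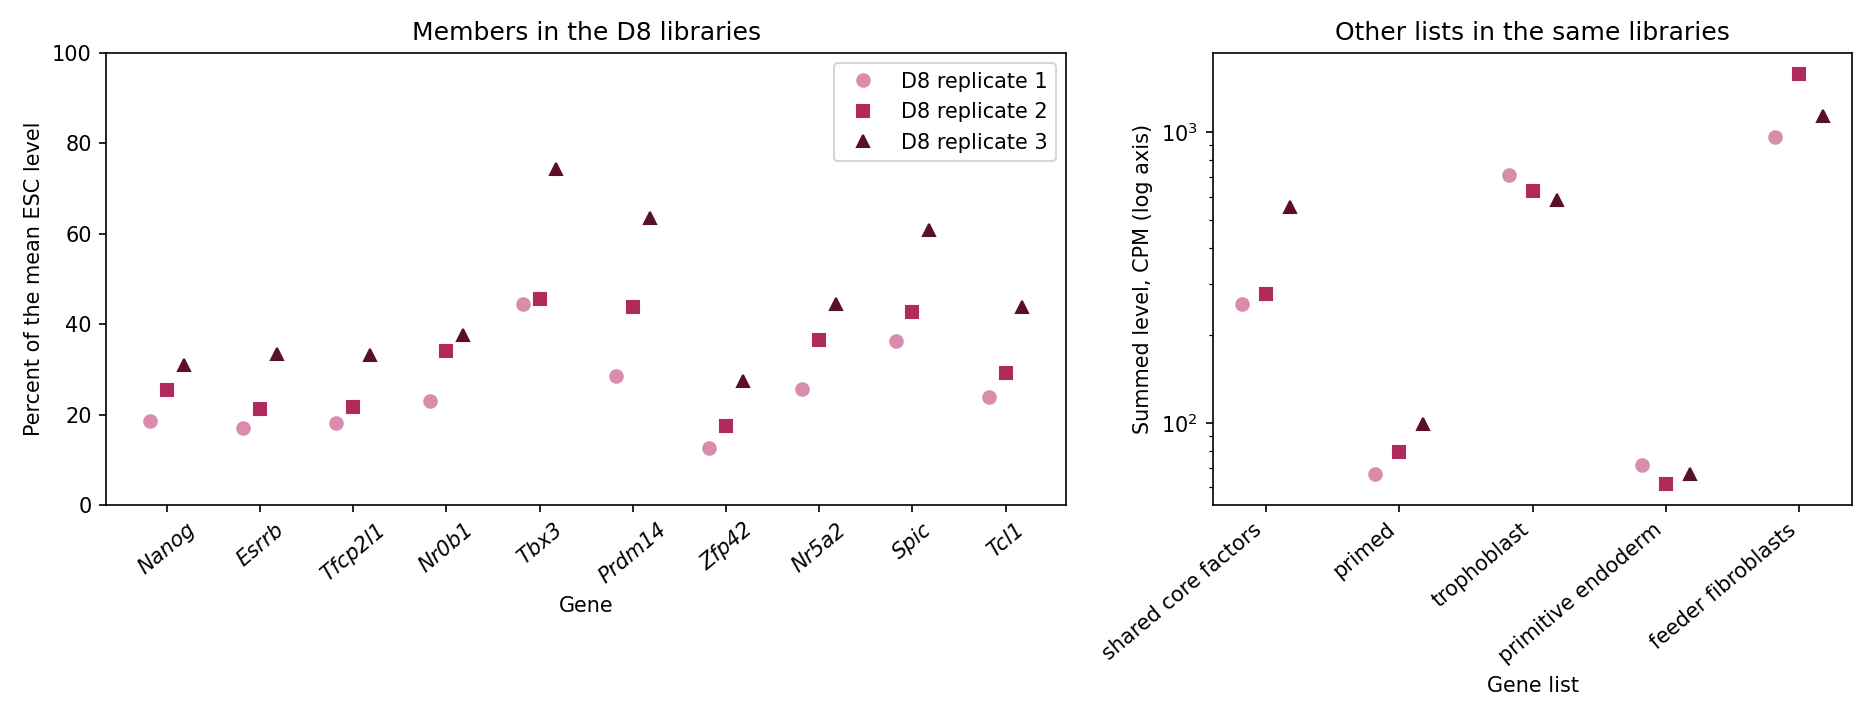
Left, level in each D8 library as percent of the mean ESC level (y) for the 10 genes (x). Right, summed CPM on a log axis (y) of 5 lists (x) in the same libraries, where the sum of the shared core factors is also highest in replicate 3 and that of the trophoblast markers, mostly Krt7, is highest in replicate 1.

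Markers of other cell types were present on the way. The summed level of the 8 trophoblast markers was 1033 to 1144 CPM at D3, 694 to 754 CPM at D5, 583 to 709.9 CPM at D8, 176 to 182 CPM in rES, 98.6 to 105 CPM in ESC and 13.2 to 19.1 CPM in EpiSC. At D3 all 8 were called higher than in EpiSC, against 34.1% of all genes, and none was at 0. At D5 and at D8, 7 were called higher than in EpiSC, against 37.7% and 42.4% of all genes. Eomes was lower at both days, at 0.474 and 1.85 CPM against 9.89 CPM in EpiSC. Hand1 averaged 458 CPM at D3 and 12.1 CPM at D8, and Krt7 271 and 403 CPM. In EpiSC Cdx2 was at 0, and in ESC Hand1. The 6 primitive endoderm markers summed to 44.9 to 48.3 CPM at D3, 47.3 to 53.7 CPM at D5, 61.4 to 71.6 CPM at D8 and 1.89 to 3.47 CPM in EpiSC. All 6 were called higher at D3 than in EpiSC, against 34.1% of all genes. The 5 germ cell markers summed to 205 to 216 CPM at D3 and 2.61 to 4.98 CPM in EpiSC, with 3 called higher, against 34.1% of all genes. Tfap2c, also on the trophoblast list, made up 202 ± 6.77 CPM of the sum at D3, and Ddx4 and Dazl averaged 0.0816 and 0.0489 CPM, both under the floor and not called. At D8, in rES and in ESC the 5 summed to 360 to 426, 919.5 to 952 and 376 to 445 CPM. All 5 were then called higher than in EpiSC, against 42.4%, 31.9% and 31.2% of all genes. Dazl averaged 145 ± 36.0 CPM at D8, 739 ± 19.3 CPM in rES and 292 ± 31.8 CPM in ESC. Ddx4 averaged 4.14 CPM at D8, 14.6 CPM in rES and 16.6 CPM in ESC. The 6 feeder fibroblast markers summed to 451 to 593 CPM at D3, 771 to 859 CPM at D5, 964 to 1591 CPM at D8, 4.88 to 6.28 CPM in rES, 118 to 164 CPM in ESC and 29.4 to 44.7 CPM in EpiSC. All 6 fibroblast markers were called higher at D3 than in EpiSC, against 34.1% of all genes. Col1a1 alone made up 404 ± 64.6 CPM there, with Postn at 0.887 and Lum at 0.7245 CPM. At D5 and at D8, 5 were called higher than in EpiSC, against 37.7% and 42.4% of all genes, and Thy1 was lower. Thy1 averaged 10.55 CPM in EpiSC, 38.3 CPM at D3, 2.34 CPM at D5 and 1.32 CPM at D8. The part of the markers of other cell types in the levels of the 10 genes was not tested.

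The last step, rES against D8, raised all 10 genes again, against 32.7% of all genes, and none overlapped, where 32.1% of all genes were called higher without overlap. All 10 were above EpiSC in rES, against 31.9% of all genes. Tfcp2l1 stood at 1525, 1508 and 1483 CPM in rES and 239, 287 and 438 CPM at D8, the largest gain of the 10 (log2 difference 2.23 ± 0.16, adjusted p = 5.11e-10). Zfp42 came next (log2 difference 2.12 ± 0.20, adjusted p = 6.63e-08). Esrrb had 677, 654 and 682 CPM and Nanog 825, 829 and 835 CPM in rES (log2 differences from D8 of 1.84 ± 0.25 and 1.57 ± 0.16). Tbx3 gained least, 224 ± 16.3 CPM in rES against 138 ± 42.6 CPM at D8 (log2 difference 0.70 ± 0.19, adjusted p = 0.00350). Spic averaged 24.7 ± 0.229 CPM in rES (log2 difference 0.98 ± 0.39, adjusted p = 0.0341), a call lost with DESeq2 (adjusted p = 0.230), without D8 replicate 1 (adjusted p = 0.111), without D8 replicate 2 (adjusted p = 0.0890) and without any one rES library (adjusted p = 0.0653 to 0.0704). Prdm14 averaged 73.6 ± 2.17 CPM in rES (log2 difference 1.66 ± 0.30, adjusted p = 8.10e-05) and lost its call with DESeq2 (adjusted p = 0.0848).

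Whether the return was complete was asked with rES against ESC. By edgeR over all 18 libraries Nanog alone was called, lower in rES, against 17.9% of all genes called lower, and none of the 10 was called higher, against 15.6%. At an unadjusted p under 0.05 the counts were also 0 higher and 1 lower, and DESeq2 gave the same counts. Nanog stood at 825, 829 and 835 CPM in rES and 1113, 1090 and 1140 CPM in ESC (log2 difference -0.43 ± 0.15, adjusted p = 0.0391). Its call did not hold with RLE scaling (adjusted p = 0.0553), with library totals (adjusted p = 0.0703), with the replicate number as a block (adjusted p = 0.0552) and without any one rES or ESC library, although the rES libraries were all below those of ESC. The spread used by this test is shared by all 6 groups, including D8. When rES and ESC were fitted alone, 7 of the 10 genes were called, 3 higher against 25.9% of all genes and 4 lower against 25.8%, and these were the 7 whose libraries did not overlap. Over all genes, 26.4% lay wholly above ESC in rES and 27.3% wholly below.

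Prdm14 was the highest of them, at 146, 145 and 138% of the mean ESC level in rES (log2 difference 0.52 ± 0.29 and adjusted p = 0.19 with all libraries, adjusted p = 1.07e-05 with the 2 groups alone). Tfcp2l1 at 114 ± 1.59% and Nr5a2 at 114 ± 1.94% of the ESC level were the other genes higher in rES in the fit of the 2 groups (adjusted p = 0.00158 and 0.00343). Nanog at 74.4 ± 0.459%, Zfp42 at 83.4 ± 1.25%, Esrrb at 85.8 ± 1.93% and Tbx3 at 89.1 ± 6.49% were lower in that fit, Tbx3 with the highest adjusted p of the 4, 0.0263. Spic, Nr0b1 and Tcl1 overlapped between the groups, at 91.7 ± 0.850%, 97.1 ± 4.37% and 104 ± 4.04% of the ESC level. Their log2 differences in the fit of all libraries were -0.12 ± 0.38, -0.04 ± 0.20 and 0.05 ± 0.18.

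**Figure D4:**
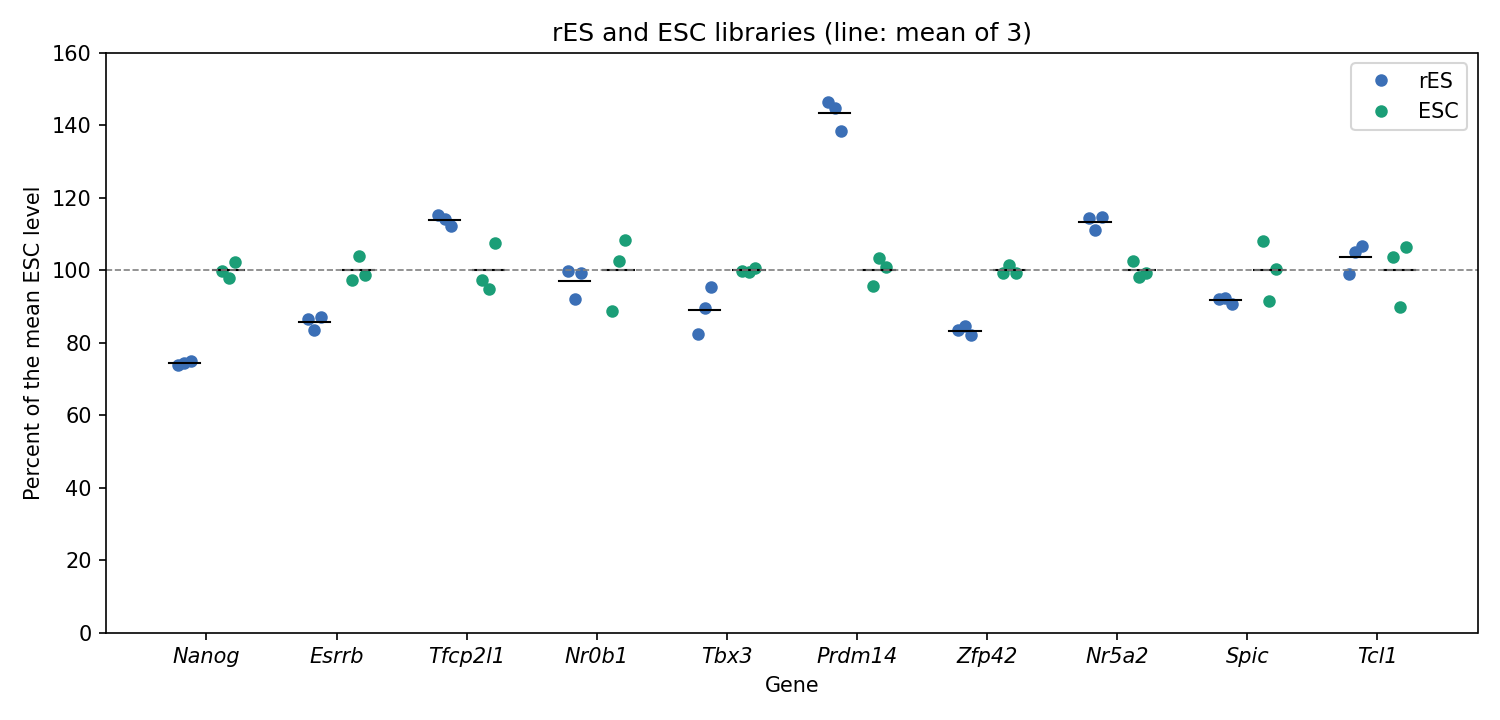
Level in each rES library (left of each pair) and each ESC library (right) as percent of the mean ESC level (y) for the 10 genes (x), with lines at the means of 3. Prdm14, Tfcp2l1 and Nr5a2 lie above 100% in every rES library, and Nanog, Esrrb, Tbx3, Zfp42, Spic and Nr0b1 lie below it in every rES library, the last 2 overlapping with ESC.

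The order and pace of the return were read on each gene's own ESC level. The median over the 10 genes was 0.814% of the ESC level at D3, 3.67% at D5, 32.0% at D8 and 94.4% in rES. Tbx3 led, at 37.5 ± 3.63% (SD, n = 3) at D3, 19.2 ± 2.01% at D5, 54.8 ± 16.9% at D8 and 89.1 ± 6.49% in rES. It was the only gene above 10% of its ESC level at D3 and at D5 and the only one above 50% at D8. Tfcp2l1 and Nr5a2 had 6.63 ± 0.444% and 4.38 ± 0.885% at D3 and were near these values at D5, with 6.91 ± 0.583% and 4.61 ± 1.54%. Esrrb had 3.06 ± 0.00460% at D3 and 1.81 ± 0.648% at D5. Tcl1, Zfp42 and Nanog stood at 0.928 ± 0.170%, 0.351 ± 0.0704% and 0.379 ± 0.0508% at D3, and at 3.18 ± 0.640%, 1.10 ± 0.173% and 1.51 ± 0.254% at D5. Nr0b1, Prdm14 and Spic, at or near the floor at D3, had 2.77 ± 0.505%, 4.17 ± 0.733% and 4.55 ± 2.12% at D5.

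At D8 the genes lay closer together. Spic was at 46.5 ± 12.7%, Prdm14 at 45.3 ± 17.6%, Nr5a2 at 35.5 ± 9.39%, Tcl1 at 32.3 ± 10.3% and Nr0b1 at 31.6 ± 7.63%. Nanog at 25.0 ± 6.25%, Tfcp2l1 at 24.3 ± 7.87%, Esrrb at 23.9 ± 8.46% and Zfp42 at 19.2 ± 7.52% were lower. The ranges of neighbours in this order overlapped, but all genes were measured in the same libraries. Within each D8 library Tbx3 was above Spic, Prdm14 above Nr5a2, Nr5a2 above Tcl1, Nr0b1 above Nanog and Esrrb above Zfp42. Spic and Prdm14, Tcl1 and Nr0b1, Nanog and Tfcp2l1, and Tfcp2l1 and Esrrb changed order between libraries. The highest Zfp42 library, at 27.4%, was below the lowest Tbx3 library, at 44.5%. The first stage called above EpiSC without overlap was D3 for Tbx3, Tfcp2l1, Esrrb, Nr5a2, Zfp42 and Tcl1, D5 for Nr0b1, Prdm14 and Spic, and D8 for Nanog. This stage depends on the floor and on the level in EpiSC, where Nanog had 40.9 CPM, and not only on the return. Tbx3 first reached 10% of its ESC level at D3, and every other gene did so at D8. On the log2 scale, with levels below the floor set to it, the step from D5 to D8 was the largest part of the way from D3 to rES for 7 of the 10 genes. It made up 77.9% of that way for Esrrb, 62.9% for Nr5a2 and 52.9% for Nanog. Tfcp2l1 covered 55.4% in the last step. Nr0b1 and Prdm14 covered at least 44.0% and 40.8% before D5, since they started at the floor. The whole way on the log2 scale was at least 9.19 for Nr0b1 and at least 8.65 for Prdm14. It was 7.91 for Zfp42, 7.62 for Nanog and 1.25 for Tbx3, which were above the floor at D3.

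**Figure D5:**
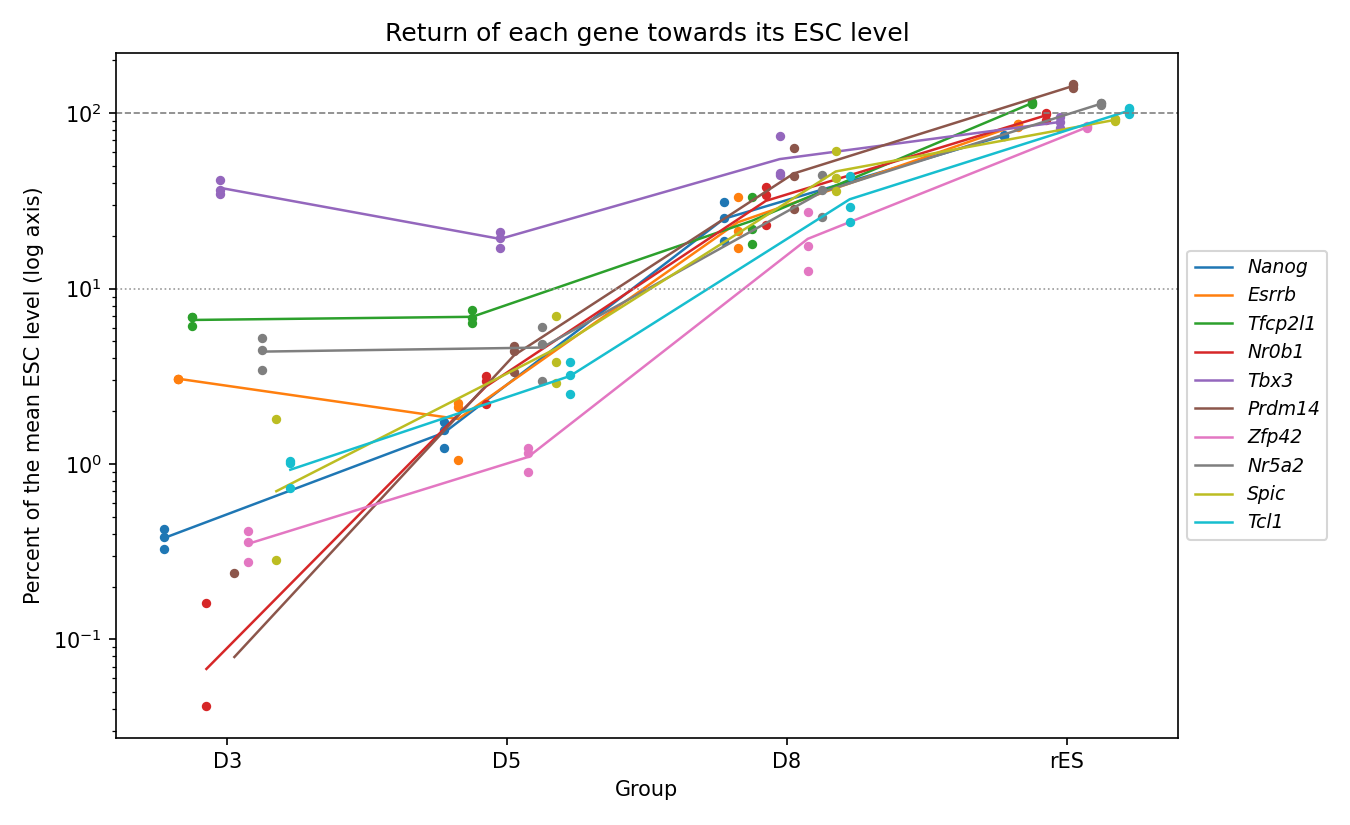
Percent of the mean ESC level on a log axis (y) at D3, D5, D8 and in rES (x) for each gene. Points are libraries, set side by side by gene, those without a count being left out, lines join the means of 3, and the dashed and dotted lines mark 100% and 10%. Tbx3 stays highest up to D8, where the other genes lie between 19.2% and 46.5%.

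For Esrrb, the groups ran EpiSC, D5, D3, D8, rES and ESC from low to high, and all neighbours were called different except rES and ESC. Tbx3 had that order too, with the same exception. Nanog ran D3, D5, EpiSC, D8, rES and ESC, and all neighbours were called different. Tfcp2l1 and Nr5a2 ran EpiSC, D3, D5, D8, ESC and rES, where D3 and D5 were not called different and neither were ESC and rES. Prdm14 ran D3, EpiSC, D5, D8, ESC and rES, where neither D3 and EpiSC, both at or near the floor, nor ESC and rES were called different. Nr0b1, Zfp42, Spic and Tcl1 ran EpiSC, D3, D5 and D8, with rES and ESC above them and not called different. For Nr0b1 and Spic, EpiSC and D3 overlapped.

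Over the 18 libraries the genes were alike to different degrees. Pearson's r of log2 CPM was highest between Zfp42 and Tcl1 at 0.997, between Nr0b1 and Spic at 0.992 and between Zfp42 and Nr5a2 at 0.989, and lowest between Nanog and Tbx3 at 0.331. The libraries fall into 6 groups and share these differences, so these values describe the pattern over groups. For each gene the likest genes outside the 10 were sought among those with at least 5 CPM in some group. For Nanog they were Zfp980, Zfp534 and Tmem231 (r = 0.997, 0.991 and 0.989). For Tbx3 they were Aqp3, Pmepa1 and Serpinb1a (r = 0.982, 0.981 and 0.980). Esrrb was followed by Hoxc13, Osr2 and Sgk1 (r = 0.988, 0.988 and 0.988), Tfcp2l1 by Fry, Cdo1 and Baiap2l1 (r = 0.995, 0.993 and 0.993), and Nr5a2 by Klf2, Myh13 and Dppa2 (r = 0.992, 0.991 and 0.990). Nr0b1 was followed by Ncoa4, Gabarapl2 and Dppa5a (r = 0.994, 0.993 and 0.988), Spic by Ncoa4, Rnf135 and Dppa5a (r = 0.986, 0.986 and 0.983), and Prdm14 by Ephx2, Zbtb43 and Serpina3m (r = 0.987, 0.983 and 0.981). Zfp42 was followed by Arid5b, Csrnp2 and Osm (r = 0.995, 0.992 and 0.992) and Tcl1 by Morc1, Csrnp2 and Osm (r = 0.993, 0.992 and 0.992).

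Other genes of the naive network were set beside the 10. Of 11 such genes, 7 were called higher and 2 lower at D3 than in EpiSC, 9 higher and 2 lower at D5, and 10 higher and 1 lower at D8. Of all genes, 34.1%, 37.7% and 42.4% were called higher at these days, and 5293, 6017 and 6048 of 17545 lower. The median log2 difference of the 11 from EpiSC was 1.86 at D3, 1.98 at D5 and 5.72 at D8, against fitted medians of 5.27, 7.23 and 9.84 for the 10 genes. With the 4 genes that had no count in EpiSC set at their lower bound, and at 0 where D3 was also under the floor, the medians of the 10 were 1.62, 3.59 and 6.79. The zinc finger factor Klf4 averaged 76.6 ± 7.36 CPM at D3, 106 ± 21.2 CPM at D5, 130.4 ± 39.4 CPM at D8, 291 ± 12.4 CPM in rES, 311 ± 25.3 CPM in ESC and 6.50 ± 1.43 CPM in EpiSC. Fgf4, the ligand that starts ERK signalling in these cells, was lower at D3 (1.55 ± 0.536 against 48.6 ± 2.22 CPM in EpiSC, adjusted p = 1.05e-11) and higher at D8 (92.8 ± 27.6 CPM, adjusted p = 0.000422), the directions of Nanog at those days. Gbx2, a homeobox factor downstream of STAT3, had 4.62 ± 2.58 CPM at D8 and 47.6 ± 6.42 CPM in EpiSC (adjusted p = 3.85e-09). It had 29.8 ± 1.80 CPM in ESC, also below EpiSC, and 61.1 ± 0.817 CPM in rES. In rES against ESC, 3 of the 11 were called higher, Dppa3, Gbx2 and Pecam1, against 15.6% of all genes, and none lower, against 17.9%. Dppa3, a marker of naive and germ cells, had 76.6 ± 2.28 CPM in rES and 18.9 ± 1.74 CPM in ESC (adjusted p = 4.97e-05).

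Genes that report the inputs of the network moved in different directions. Of 10 such genes, 4 were called higher at D3 than in EpiSC, against 34.1% of all genes, and 6 lower, against 30.2%. The LIF receptor gene Lifr and the STAT3 feedback gene Socs3 averaged 30.7 ± 1.45 and 83.6 ± 14.1 CPM at D3, 9.65 ± 1.69 and 24.1 ± 1.37 CPM at D5, 30.3 ± 4.74 and 53.0 ± 5.51 CPM at D8, and 13.1 ± 1.39 and 16.0 ± 3.54 CPM in EpiSC. Both were higher at D3 and at D8, and at D5 Lifr was lower and Socs3 higher than in EpiSC (adjusted p = 0.00539 and 0.000961). Axin2, a target of WNT signalling, had 92.3 ± 7.64 CPM at D3 and 7.63 ± 1.45 CPM in EpiSC (adjusted p = 9.75e-14). Lef1, another target and partner of WNT signalling, had 39.6 ± 2.83 CPM at D3, 7.27 ± 0.19 CPM at D5, 2.61 ± 0.626 CPM at D8 and 112 ± 3.66 CPM in EpiSC, and was lower at each of these days (adjusted p = 8.06e-09, 3.53e-14 and 1.43e-15). Tcf7l1, the repressor of naive genes, had 79.2 ± 4.73 CPM at D3 and 116 ± 3.88 CPM in EpiSC (adjusted p = 0.00783), and 223 ± 5.12 CPM in rES (adjusted p = 8.41e-05). Tcf7l1 was thus lower than in EpiSC at D3 and higher than in EpiSC in rES. The ERK feedback phosphatase gene Dusp6 had 46.2 ± 0.471 CPM at D3, 0.769 ± 0.303 CPM at D5 and 477 ± 33.3 CPM in EpiSC (adjusted p = 1.84e-12 and 1.88e-16).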

How the data were processed

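RNA depleted of ribosomal RNA was sequenced from 18 mouse libraries, 6 groups of 3. The authors deposited whole numbers per gene symbol, treated here like expected counts, not raw ones, because low values bunch at 4. The median library had 314.5 genes at a count of 4, 157 at 3 and 105.5 at 5. At 8 no such bunch was clear, with 163 genes against 152.5 at 7 and 109 at 9. Per the submitters' processing notes, the tools were bcl2fastq, Trim Galore and HISAT2, with mm10. The counting program is not given in the sources used here, and the floor was set at 12 counts. Totals of 58362230 to 101607352 counts per library set the precision, and the floor covers counting error only.

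Of 25239 symbols, 17545 passed filterByExpr in edgeR 4.0.16 (R 4.3.3, limma 3.58.1). One quasi-likelihood fit of all libraries with TMM scaling gave every comparison, adjusted over those genes (Benjamini-Hochberg, 0.05). The fit was also run on simulated counts, where only genes well above the floor were changed, and in D8 alone. That run does not bear on calls near the floor. A standard error is approximate, the log2 difference over the root of its F. The alternatives were RLE scaling, library totals, no filter, counts divided by 4, DESeq2 1.42.0, a replicate block, 2 groups fitted alone and fits without each library.

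Likeness used log2 CPM with a prior count of 2. For each of the 10 genes, the text names the 3 likest genes of at least 5 CPM in some group, skipping Gm and Rik symbols, and it may name any gene of the lists. The 10 genes and all lists were chosen with earlier results of these data known, and TTTGCAT was chosen after the other motifs. Promoters are RefSeq's. Positions and exon lengths come from a GRCm38 annotation.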

Additional observations from a re-analysis of the deposited data

How the results depend on the processing

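Of 2497 values of the 10 genes under the alternatives, 2455 kept their direction and their side of the threshold, 27 kept the direction and lost the call, 7 kept it and gained a call, and 8 changed sign without being called in either fit. A gene that failed the filter or had no adjusted p under an alternative is not in this tally. With library totals, the log2 differences of Tfcp2l1 and Nr5a2 in D5 against D3 were -0.042 and -0.025. Without each library in turn, the log2 difference ran from -0.0091 to 0.11 for Tfcp2l1 and from -0.16 to 0.31 for Nr5a2 in D5 against D3, from -5.20 to 4.47 for Prdm14 in D3 against EpiSC, and from -0.022 to 0.099 for Tcl1 and -0.12 to 0.0204 for Nr0b1 in rES against ESC, so these 5 have no stable direction. The comparison that moved most was rES against ESC. There 0 of the 10 genes were called lower with RLE scaling, with library totals and with the replicate block, and 4 with the 2 groups fitted alone. In the same comparison 1 gene, Prdm14, was called higher with counts divided by 4, and 3 with the 2 groups fitted alone. Without each library in turn, 0 to 1 genes were called lower in rES against ESC, and 1 to 2 in D5 against D3, where the count of 1 came without D5 replicate 2. In D3 against EpiSC, 6 to 8 were called higher, and Nr0b1 was lost with counts divided by 4 (adjusted p = 0.0947), without EpiSC replicate 2 (adjusted p = 0.0509) and without EpiSC replicate 3 (adjusted p = 0.0519). Apart from the construction of the fits with fewer samples, the cause of these shifts was not tested. Replicate numbers did not pair the libraries. Over 45 pairs of libraries with the same number, the deviations from the group means had a median correlation of 0 (-0.0607 to 0.0533). Of 18 libraries, 6 were most like one of their own number. With the replicate block, Nanog in rES against ESC had an adjusted p of 0.0552, and no other call of the 10 genes changed. Levels under about 0.2 CPM are at the limit of depth.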

Other observations

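Relatives of the 10 genes were measured beside them. Of 18 genes of the same families, 11 passed the filter on low counts, and in D8 against D5 none of these was called higher, against 25.1% of all genes, and 4 were called lower, against 22%. The difference from the 10 genes was not tested. At an unadjusted p under 0.05, 1 of the 11 was higher in edgeR, and DESeq2 called 1 of those it tested higher. The genes Tcl1b1 to Tcl1b5 lie beside Tcl1 on chromosome 12, from 105146014 to 105206993 in GRCm38, with Tcl1 at 105216750 to 105222793. Tcl1b1, Tcl1b3, Tcl1b4 and Tcl1b5 had no count in any library, and Tcl1b2 averaged 0.0672 CPM in ESC, where Tcl1 averaged 33.1 CPM. The Tcl1b genes resemble each other, so how reads were split among them is uncertain. Esrra, the receptor related to Esrrb, was highest at D5, 73.9 ± 7.92 CPM, against 20.7 ± 3.49 CPM in EpiSC (adjusted p = 1.82e-08). Tbx2, the nearest relative of Tbx3, had 15.5 ± 2.93 CPM at D3 and 0.327 ± 0.0476 CPM in EpiSC (adjusted p = 8.67e-12), and 4.11 ± 0.264 CPM in rES.

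Macrophage markers were measured because SPIC also serves macrophages. The 5 markers summed to 178 to 251 CPM at D8 and 0.697 to 1.23 CPM in EpiSC. Csf1r, the receptor of a macrophage growth factor that placental cells also express, averaged 218 CPM at D8. Ptprc and Adgre1, which mark leukocytes and macrophages, averaged 0.0238 and 0.0367 CPM at D8, both under the floor.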
